A study of Mus musculus with 6 samples.

Results

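The cytokines with which antigen-presenting cells instruct T cells were examined in mouse dendritic cells cultured with or without DB2313, a small molecule that the study used as an inhibitor of the transcription factor Spi1 (PU.1). The genes were chosen by name and were Il12a, Il12b, Il23a, Il27 and Ebi3 of the IL-12 family, Il6, Il10, Il15 and Il15ra, 9 genes among the 54532 in the count table. RNA-seq was performed on 3 control libraries, which received no DB2313, and 3 libraries treated with DB2313. The labels named dendritic cells in both groups, gave no genotype, strain, age, dose or time of treatment, and did not say whether the libraries came from separate cultures or animals, so p-values measure the spread between these libraries, which may be technical. The study itself wrote of macrophages. The columns of the count table were named by a short form of bone marrow-derived dendritic cells for the controls and by Spi1 for the other group, and each direction below rests on reading the latter as the DB2313 libraries.

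The IL-12 family is built from shared parts. The p40 chain encoded by Il12b pairs with the p35 chain of Il12a to form IL-12, which drives Th1 cells, and with the p19 chain of Il23a to form IL-23, which sustains Th17 cells. Ebi3 resembles a soluble receptor chain and pairs with the product of Il27 to form IL-27, and with p35 to form IL-35. IL-6 turns T cells towards Th17 and follicular helper fates, IL-10 restrains antigen-presenting cells and T cells, and IL-15 is held on the surface by Il15ra and presented from there to CD8 T cells and NK cells. In dendritic cells most of these genes are induced by microbial signals through NF-kB, AP-1, C/EBP and interferon regulatory factors, and Spi1 acts on many myeloid promoters by binding a purine-rich sequence around GAGGAA.

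Ebi3 and Il6 were well read, did not pass the test and had a single RefSeq start each. For these and for Il12b, the member that fell with DB2313, the stretches just upstream of the transcription start are shown. Each is 250 bases long, reads 5′ to 3′ on the strand of the gene and ends 1 base before the RefSeq start. Capitals mark GAGGAA or its reverse complement TTCCTC. The windows are GRCm38.p6 chr11:44399813-44400062 for Il12b, chr17:55952373-55952622 for Ebi3 and chr5:30012864-30013113 for Il6, all on the plus strand.
Il12b: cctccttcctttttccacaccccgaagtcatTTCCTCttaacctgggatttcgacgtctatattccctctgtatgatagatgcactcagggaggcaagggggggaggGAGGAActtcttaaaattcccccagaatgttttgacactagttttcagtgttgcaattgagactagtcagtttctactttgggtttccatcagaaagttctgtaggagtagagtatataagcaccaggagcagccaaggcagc
Ebi3: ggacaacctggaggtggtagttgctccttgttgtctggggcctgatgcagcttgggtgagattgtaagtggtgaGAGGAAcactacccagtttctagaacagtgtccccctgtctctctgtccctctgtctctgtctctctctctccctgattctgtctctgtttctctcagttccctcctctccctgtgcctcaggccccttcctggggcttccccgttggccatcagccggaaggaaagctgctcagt
Il6: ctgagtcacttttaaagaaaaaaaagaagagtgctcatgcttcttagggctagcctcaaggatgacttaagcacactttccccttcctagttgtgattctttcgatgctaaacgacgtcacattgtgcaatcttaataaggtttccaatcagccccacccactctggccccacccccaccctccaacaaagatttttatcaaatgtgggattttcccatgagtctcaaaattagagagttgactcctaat

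The set of RefSeq promoter entries used here covered 5 of the 9 members, with 7 start sites in all. It held no entry for Il23a, Il27, Il10 and Il15, which were therefore not searched. Il12b held GAGGAA at -143 to -138 on its own strand and at -219 to -214 on the opposite strand, counted from -1 at the last base before the start. Ebi3 held 1 copy, at -176 to -171. The upstream window of the first of the 2 Il15ra starts held 2 copies, both on the opposite strand, and those of the second Il15ra start, of both Il12a starts and of Il6 held none. The first Il15ra window thus held as many copies as that of Il12b, although Il15ra did not pass the test. Over the mouse genome, 23.3% of 32851 such windows contained the hexamer on either strand, so its presence is common. Other patterns were searched on both strands. Il6 held the NF-kB pattern GGNNTTTCC (4.93% of all windows) at -43 to -35, the C/EBP pattern TTGCNNAA (9.56%) and the AP-1 pattern TGANTCA (6.75%), the last of which was also present at the second Il15ra start. The interferon regulatory factor core GAAANNGA (18.1% of all windows) occurred in the Il12b, Ebi3 and first Il15ra windows. No member window held the letters TATAAA (12.4%). No match overlapped a match of another pattern. These matches are letters in a window and not sites shown to be bound.

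**Figure D1:**
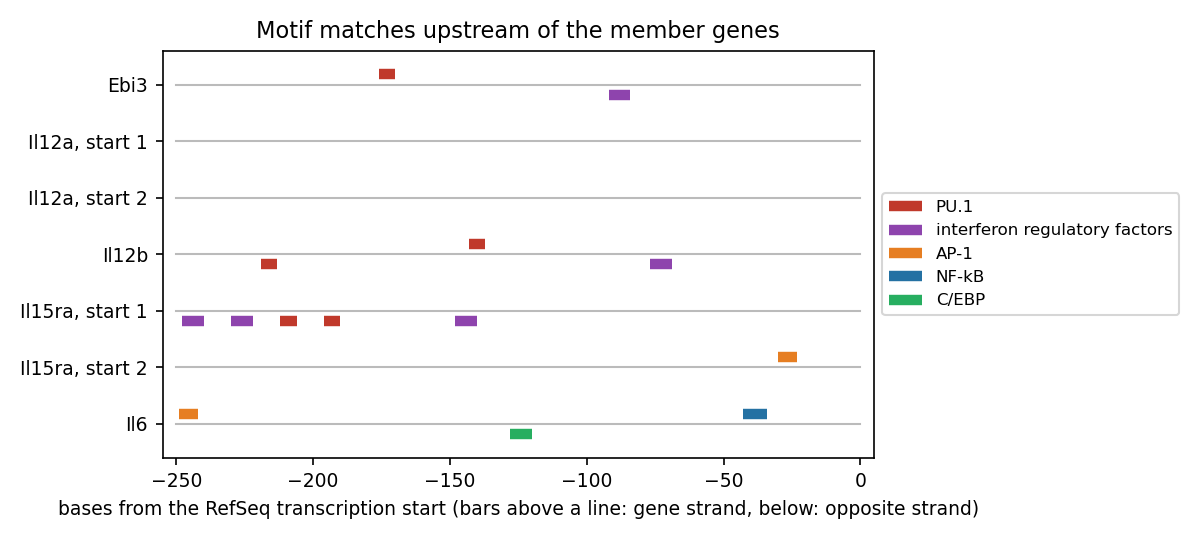
Matches of the motifs in the 250 bases upstream of each RefSeq start of the member genes, with the distance from the start in bases on the x axis and 1 line per start. Bars above a line lie on the strand of the gene and bars below it on the opposite strand, and Il12b and the first Il15ra start each carry 2 PU.1 hexamers.

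Of the 9 genes, 6 met the count minimum and were compared between the groups among 14174 tested genes. Il12b fell to about 0.494 of its control level with DB2313. No other tested member passed the threshold, and the log2 fold changes of Il6, Ebi3, Il15 and Il15ra lay between -0.14 and 0.10. Il12a, Il23a and Il10 were near the limit of detection in both groups. Thus 1 of 6 tested members was called lower and 0 higher, where 5.94% of all tested genes were lower, 4.66% higher and 10.6% changed in either direction. The groups did not overlap for 1 of 6 tested members and for 27.4% of all tested genes. In a list of 6 tested genes a single gene makes 16.7%, so these shares are no result about the list. The median log2 fold change was -0.0028 over the tested members and 8.2e-04 over all tested genes.

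**Figure D2:**
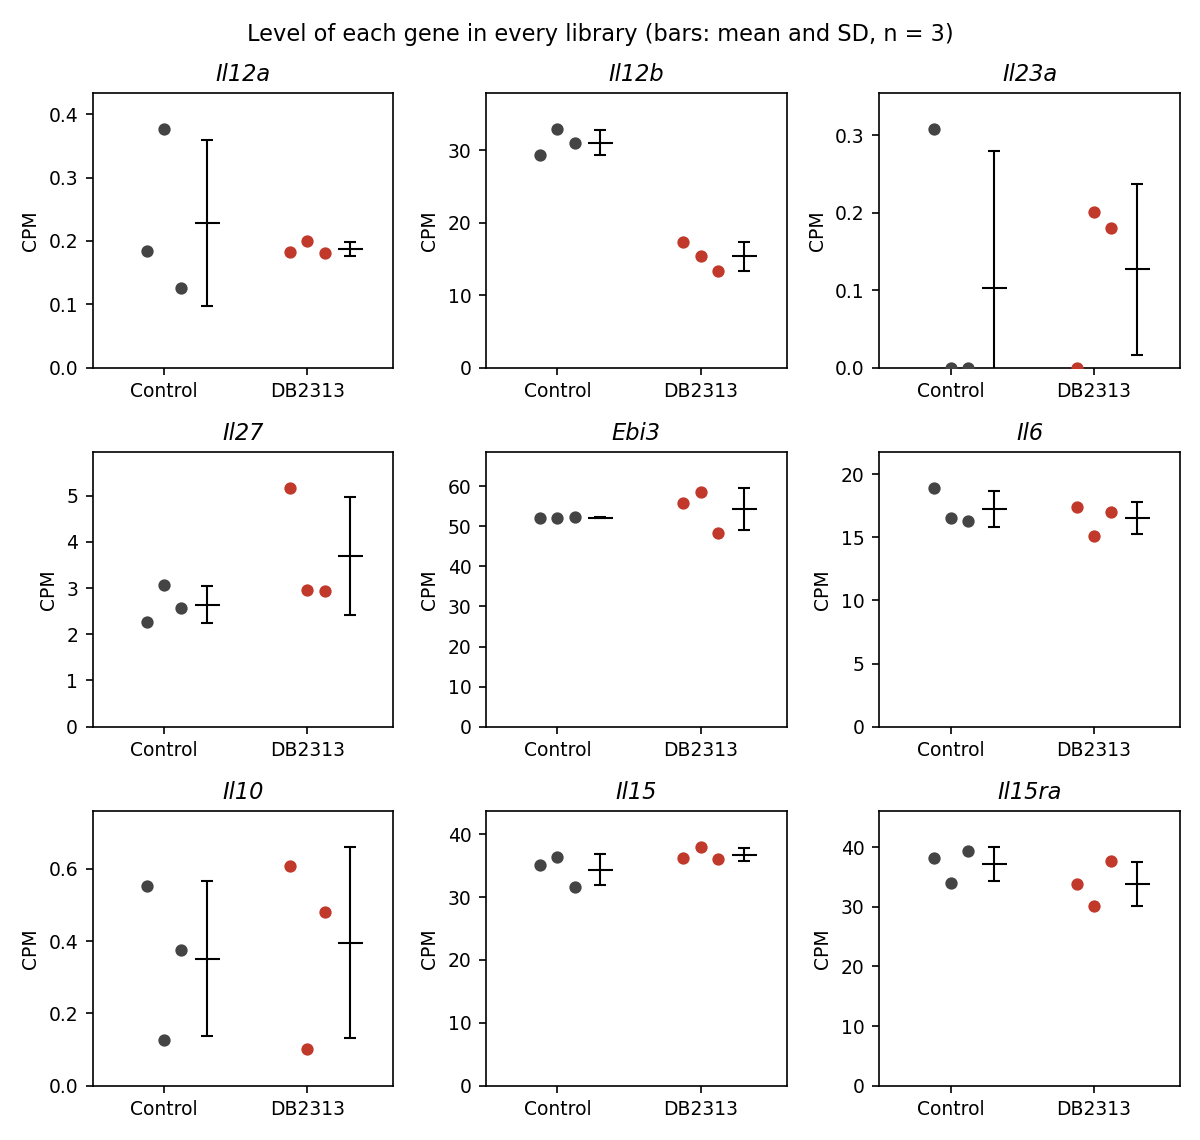
CPM (the count over the scaled library size, on the y axis, starting at 0) of the 9 genes in each of the 3 control and 3 DB2313 libraries, with the mean and SD of each group beside the points. The groups are separated for Il12b (controls at 29.4 to 32.9 CPM, treated libraries at 13.4 to 17.3 CPM), and they overlap for the other 8 genes.

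Il12b (ENSMUSG00000004296, GRCm38 chromosome 11, 44400063 to 44414033, plus strand) encodes the p40 chain common to IL-12 and IL-23. It had 478, 525 and 494 counts in control replicates 1 to 3, and 285, 307 and 223 counts in DB2313 replicates 1 to 3. On the scale of CPM, counts scaled to the library size, these were 29.4, 32.9 and 30.98 in control and 17.3, 15.4 and 13.4 with DB2313. Every treated library lay below every control library, with a gap between the groups far wider than the spread within either. The mean fell from 31.1 ± 1.77 to 15.4 ± 1.95 CPM (SD, n = 3 each). In the quasi-likelihood test of edgeR, its log2 fold change was -1.02 ± 0.12 (SE), with a 95% interval of -1.26 to -0.77 and an adjusted p of 4.9e-05. By p-value Il12b ranked 72 among the 14174 genes. Of the reads on the 9 members, Il12b took 16.6% to 18.8% in controls and 8.57% to 10.4% after treatment. The call held in each of the 17 alternatives, with a highest adjusted p of 9.7e-04. As these are bulk libraries, fewer cells that make p40 and less Il12b RNA per cell cannot be told apart.

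The partner chains of p40 were scarcely read. Il12a (ENSMUSG00000027776, chromosome 3, 68690644 to 68698547, plus strand) had 3, 6 and 2 counts in control and 3, 4 and 3 with DB2313. Il23a (ENSMUSG00000025383, chromosome 10, 128296139 to 128298752, minus strand) had 5, 0 and 0 counts in control and 0, 4 and 3 with DB2313. A count of 3, taken as the floor, corresponds to 0.150 to 0.188 CPM in these libraries, so both genes sat around the floor and a change in either was not detectable at this depth. Summed over the control libraries and set per length, Il12b exceeded Il12a by 118-fold (95% exact interval 65.6 to 236, from 1497 against 11 counts) and Il23a by 342-fold (146 to 1055, from 1497 against 5 counts). With DB2313 the same ratios were 70.5 (38.1 to 148, from 815 against 10 counts) and 133 (64.3 to 332, from 815 against 7 counts). The intervals cover counting error only and overlap between the groups for both pairs. In both groups the transcript of the shared chain was thus in large excess over those of the chains that give IL-12 and IL-23 their identity.

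Ebi3 and Il27, the 2 chains of IL-27, stood in a like relation. Ebi3 (ENSMUSG00000003206, chromosome 17, 55952640 to 55957022, plus strand) was the most expressed member, with 52.1, 52.1 and 52.2 CPM in controls against 55.9, 58.5 and 48.4 CPM after treatment. The treated libraries lay on both sides of the narrow control range. Its log2 fold change was 0.058 ± 0.088 (SE), with a 95% interval of -0.13 to 0.25 and an adjusted p of 0.759 (edgeR). Il27 (ENSMUSG00000044701, chromosome 7, 126589010 to 126594941, minus strand) had 37, 49 and 41 counts in control and 85, 59 and 49 with DB2313. Replicate 1 of the DB2313 group was the highest, and replicates 2 and 3 fell within the control range in CPM. The log2 fold change of Il27 was 0.48 ± 0.29 (SE), with an adjusted p of 0.366, and the 95% interval from -0.15 to 1.10 left room for a 2-fold rise. Without DB2313 replicate 1 it was 0.16. Per length, Ebi3 exceeded Il27 by 20.3, 14.99 and 17.98 times in control and by 9.58, 17.5 and 14.5 times with DB2313. The ratios overlapped, with an exact two-sided permutation p of 0.2, where 3 against 3 libraries cannot give less than 0.1. Ebi3 overlaps Gm16712 on the opposite strand and Il27 overlaps Apobr on the opposite strand, with shared stretches of 158 and 103 bp, and the strandedness of the counting was not given in the sources used here, so some of their reads could belong to these neighbours.

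Il6 (ENSMUSG00000025746, chromosome 5, 30013114 to 30019981, plus strand) had 307, 263 and 260 counts in control and 287, 301 and 283 with DB2313. In CPM the control libraries ran from 16.3 to 18.9 and the DB2313 libraries from 15.1 to 17.4, with wide overlap. The 95% interval of its log2 fold change, -0.32 to 0.19, did not meet that of Il12b, whose upper limit was -0.77, and its adjusted p was 0.810 (edgeR). Il10 (ENSMUSG00000016529, chromosome 1, 131019845 to 131024974, plus strand) had 9, 2 and 6 counts in control and 10, 2 and 8 with DB2313, and did not pass the filter on low counts. Its counts varied more within each group than between them.

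Il15 and Il15ra, the cytokine and the chain that presents it, were both well read. Il15 (ENSMUSG00000031712, chromosome 8, 82331632 to 82403222, minus strand) averaged 34.3 ± 2.44 CPM in controls against 36.7 ± 1.02 CPM after treatment (SD, n = 3 each). Il15ra (ENSMUSG00000023206, chromosome 2, 11705290 to 11734317, plus strand) was at 37.2 ± 2.82 and 33.9 ± 3.71 CPM. The log2 fold change was 0.098 ± 0.092 for Il15 (SE, 95% interval -0.098 to 0.29, edgeR adjusted p 0.582) and -0.14 ± 0.10 for Il15ra (SE, 95% interval -0.36 to 0.084, edgeR adjusted p 0.481). The groups overlapped for both genes. The ratio of Il15 to Il15ra per length was 1.81, 2.10 and 1.58 in control and 2.10, 2.47 and 1.89 with DB2313, again with overlap (exact two-sided permutation p of 0.2).

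**Figure D3:**
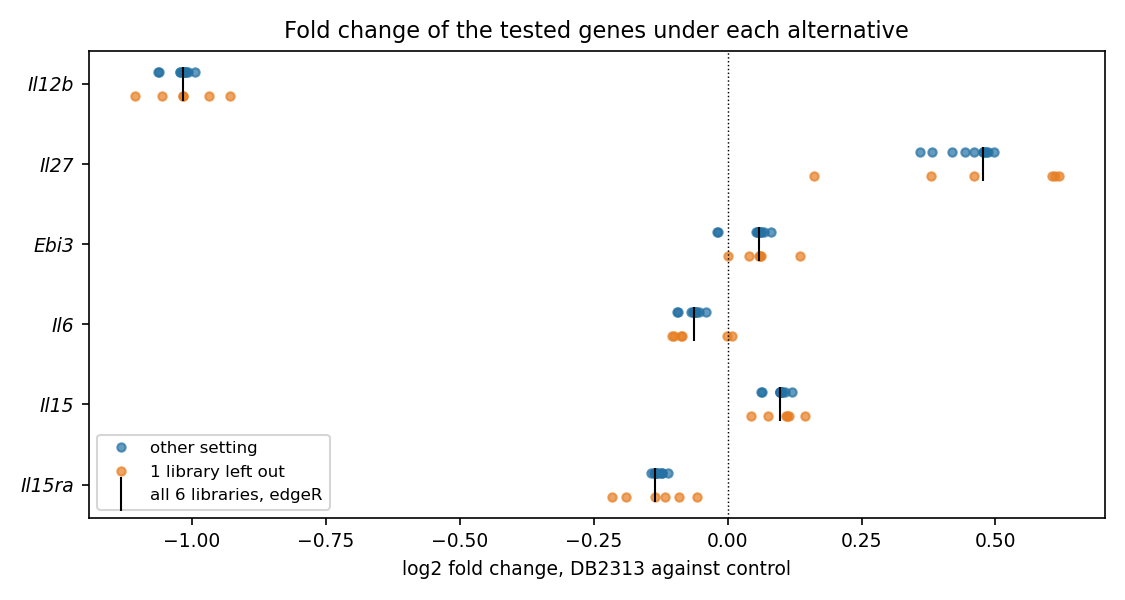
Log2 fold changes (DB2313 against control, x axis) of the 6 tested genes with all 6 libraries in edgeR (black line), under 11 other settings (blue) and with each library left out in turn (orange). Il12b stays between -1.11 and -0.93, Il27 moves from 0.16 to 0.62, and the other 4 genes stay between -0.22 and 0.15.

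Levels were compared between genes only per length, as RPKM, the CPM divided by the gene length in kilobases. In control the order was Ebi3 (45.2 ± 0.080), Il12b (15.8 ± 0.90), Il15 (15.2 ± 1.08), Il15ra (8.36 ± 0.63), Il6 (7.10 ± 0.59), Il27 (2.59 ± 0.40), Il10 (0.268 ± 0.16), Il12a (0.134 ± 0.077) and Il23a (0.0456 ± 0.079, SD, n = 3 each). The ranges of Il12b (14.9 to 16.7) and Il15 (13.98 to 16.1) overlapped, as did those of Il15ra (7.65 to 8.86) and Il6 (6.72 to 7.77), and the 3 lowest genes could not be ordered. With DB2313, Il12b (7.81 ± 0.99 RPKM) no longer shared its range with Il15 (16.2 ± 0.45 RPKM) but with Il15ra (7.62 ± 0.84 RPKM) and Il6 (6.80 ± 0.51 RPKM). The lengths are those of the count table, and Il15ra has 18 annotated transcripts, so its level per length depends on which are used.

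The genes whose pattern over the 6 libraries was most like that of Il12b were Cd200, Nckipsd and Tmem37, with a Pearson r of log2 CPM of 0.999, 0.998 and 0.998. Cd200, a membrane glycoprotein that signals to myeloid cells, went from 62.5 to 29.5 CPM (mean of 3), Nckipsd from 50.96 to 33.2 CPM and Tmem37 from 40.9 to 20.7 CPM. Among 11976 genes compared, 297 had an r above 0.95, and with 6 libraries in 2 groups the likeness is a description.

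The receptors of these cytokines were read next. Markers of T cells and NK cells were also read in these libraries, as given below. Which cells the RNA of the receptors and of the JAK and STAT genes came from was not tested. All 10 chains were tested, 2 were lower and none was higher, with a median log2 fold change of -0.12. That was 20% of the chains, where 10.6% of all tested genes changed, and in so short a list it is no result about the list. Il12rb1, the chain common to the receptors of IL-12 and IL-23, was at 29.2, 35.1 and 33.7 CPM in control and at 27.9, 25.8 and 22.0 CPM with DB2313 (log2 fold change -0.37 ± 0.11, SE, edgeR adjusted p 0.0464). Il10ra, the ligand-binding chain of the IL-10 receptor, was at 178, 181 and 185 CPM in control and at 153, 152 and 154 CPM with DB2313 (-0.24 ± 0.066, edgeR adjusted p 0.0268). Both calls were lost in most of the fits that left out 1 library, which are given after the lists. Il2rb, through which IL-15 signals, had a log2 fold change of 0.32 ± 0.099 and Il23r, the second chain for IL-23, of -0.73 ± 0.24 (SE), and neither passed (edgeR adjusted p 0.0507 and 0.0660) although the groups did not overlap. Il2rb lay close to the threshold and was called higher in 8 of the 11 other settings (DESeq2 adjusted p 0.0237) but in only 1 of the 6 fits without 1 library, and Il23r was called lower in 2 of the 11 and 1 of the 6. Il6st, the chain used by IL-6 and IL-27, had a log2 fold change of -0.030 ± 0.10 (SE).

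Downstream of the receptors, 8 JAK kinases and STAT factors were tested, of which 1 was lower and none higher, with a median log2 fold change of -0.13. This share of 12.5% lay near the 10.6% of all tested genes that changed and is no result about the list. Jak2, a kinase used by the IL-12 and IL-23 receptors, was at 730, 810 and 712 CPM in control and at 602, 638 and 644 CPM with DB2313 (log2 fold change -0.26 ± 0.070, SE, edgeR adjusted p 0.0272), with no overlap between the groups. Stat4, the main factor of IL-12 signalling, did not pass, with a log2 fold change of -0.29 ± 0.10 (SE, edgeR adjusted p 0.0774).

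**Figure D4:**
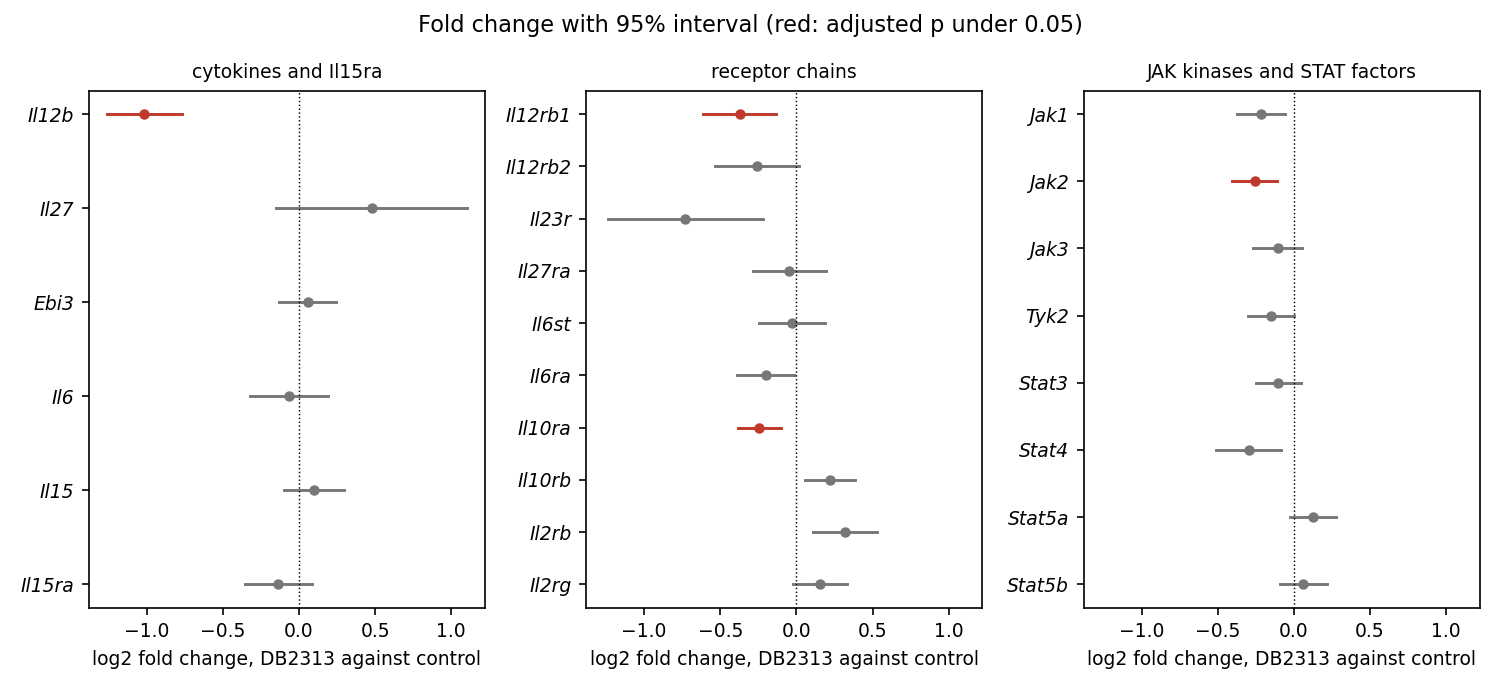
Log2 fold change (x axis, DB2313 against control) with its 95% interval for the 6 tested members, the 10 receptor chains and 8 JAK and STAT genes, with an adjusted p under 0.05 in red. Il12b, at -1.02, lies farther from 0 than any other gene drawn, and the called receptor and signalling genes lie between -0.37 and -0.24.

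Other cytokines were then set beside the members. Of 17 further genes of the IL-6, IL-10 and common gamma chain families, 5 were tested and 1 changed. This was 20%, where 10.6% of all tested genes changed, and it rests on 1 gene. Il7, which keeps T cells alive, rose from 2.15, 2.01 and 2.32 CPM in control to 4.01, 4.61 and 5.71 CPM with DB2313 (log2 fold change 1.14 ± 0.25, SE, edgeR adjusted p 0.00884). It rested on 32 to 37 counts per control library and 66 to 95 per DB2313 library. Of 12 other cytokines that act on T cells, 9 were tested, 1 was higher and 2 were lower. These 3 genes made 33.3% of those tested, against the same 10.6% of all tested genes. Il1b went from 34.9, 29.9 and 42.7 CPM to 20.3, 25.2 and 21.3 CPM, a log2 fold change of -0.68 ± 0.13 (SE, edgeR adjusted p 0.0031). Il1a went from 7.99, 6.84 and 8.84 CPM to 3.22, 4.36 and 5.65 CPM, a log2 fold change of -0.84 ± 0.22 (SE, edgeR adjusted p 0.0223). Both encode forms of IL-1, which amplifies T cell responses. Tnfsf4, the costimulatory ligand OX40L, rose from 91.5, 96.3 and 89.7 CPM to 126, 138 and 118 CPM, by 0.46 ± 0.079 on the log2 scale (SE, edgeR adjusted p 0.0015). Among the called cytokines outside the members, 2 were thus lower and 2 higher.

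Of 22 transcription factors known to act on the promoters of these cytokines, all were tested, 9 were lower and none was higher, with a median log2 fold change of -0.20. Among all tested genes 5.94% were lower. All 22 factors averaged over 10 CPM, whereas the tested genes include lower ones. The list was also written with earlier results of these data known, so its share is a description. Of the NF-kB family, Relb (log2 fold change -0.38 ± 0.077, SE), Rel (-0.36 ± 0.075) and Nfkb2 (-0.32 ± 0.066) fell, whereas Rela (-0.19 ± 0.077) and Nfkb1 (0.085 ± 0.063) did not pass. The c-Rel protein made by Rel is known for its part in Il12b and Il23a transcription. Its gene was at 216, 246 and 219 CPM in control and at 168, 175 and 187 CPM with DB2313, with no overlap (edgeR adjusted p 0.0057).

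Of the interferon regulatory factors on the list, Irf4 and Irf5 were lower, and Irf1 (log2 fold change -0.044 ± 0.074, SE, edgeR adjusted p 0.784) and Irf8 did not pass. Irf4 fell from 139, 160 and 157 CPM to 111, 113 and 115 CPM (log2 fold change -0.43 ± 0.075, SE) and Irf5 by 0.25 ± 0.067 on the log2 scale. Irf8, which acts with Spi1 on composite sites, had a log2 fold change of -0.16 ± 0.076 (SE, edgeR adjusted p 0.207). Batf3, a factor of cross-presenting dendritic cells, went from 113, 95.03 and 111 CPM to 78.9, 80.8 and 54.7 CPM, with replicate 3 of the treated group the lowest, and its relative Batf did not pass (log2 fold change -0.048 ± 0.13, SE, edgeR adjusted p 0.880). Of the AP-1 genes, Fos (-0.63 ± 0.14) and Junb (-0.30 ± 0.083, log2 fold change ± SE) fell and Jun (0.028 ± 0.075) did not pass. Nfil3, a repressor of Il12b that IL-10 induces, fell by 0.28 ± 0.072 (SE) on the log2 scale. Spi1 itself did not pass, with a log2 fold change of -0.15 ± 0.071 (SE, edgeR adjusted p 0.206). The number of lower genes in this list ranged from 5 to 12 over the fits without 1 library. It was 5 without control replicate 1 or without control replicate 3, 6 without control replicate 2 or without DB2313 replicate 2, and 12 without DB2313 replicate 1, and 1 gene was higher without DB2313 replicate 3.

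Genes that IL-10 and IL-6 are known to induce through STAT3 were read beside the few Il10 counts. All 11 were tested, 5 were lower and none was higher, with a median log2 fold change of -0.21. Among all tested genes 5.94% were lower and 4.66% higher. Bcl3, an NF-kB cofactor that represses cytokine genes, went from 67.1, 64.0 and 67.1 CPM to 42.6, 36.2 and 40.4 CPM (log2 fold change -0.74 ± 0.086, SE, edgeR adjusted p 6.8e-05). Etv3, a transcriptional repressor, fell by 0.42 ± 0.071, Pim1, a survival kinase, by 0.40 ± 0.068, Nfil3 by 0.28 ± 0.072 and Il4ra, the IL-4 receptor chain, by 0.23 ± 0.067 on the log2 scale (± SE). Socs3, a feedback inhibitor induced by STAT3, did not pass, with a log2 fold change of -0.15 ± 0.13 (SE). The others that did not pass were Sbno2 (log2 fold change -0.21), Zfp36 (-0.14), Il1rn (-0.035), Cish (0.014) and Socs1 (0.015). All 11 genes averaged over 10 CPM and the list was written with earlier results known, so the share is a description. The number of lower genes ranged from 3 to 6 over the fits without 1 library, at 3 without control replicate 2, control replicate 3 or DB2313 replicate 2.

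Counted once each, 64 of the 79 genes in these 6 lists were tested, of which 18 were lower and 2 higher. These were 28.1% and 3.13% of the tested list genes, where 5.94% of all tested genes were lower and 4.66% higher. The lists were written with earlier results of these data known, and the counts are given as a description. When each library was left out in turn, no called gene turned its sign, and Il7, Il1b, Tnfsf4, Relb, Irf4, Bcl3, Etv3 and Pim1 stayed called in all 6 fits. Il10ra, Il4ra, Irf5 and Jak2 lost their call without any one of the control libraries and without DB2313 replicate 2 (edgeR adjusted p 0.0615 to 0.236), as did Il12rb1, which also lost it without DB2313 replicate 3 (0.0526 to 0.220). Il1a and Junb lost it without control replicate 1, control replicate 3 or DB2313 replicate 2 (edgeR adjusted p 0.0828 to 0.147), and Nfil3 without control replicate 2, control replicate 3 or DB2313 replicate 2 (0.0966 to 0.122). Batf3 (0.0563) and Fos (0.0529) lost it without control replicate 1, Rel (0.0565) without control replicate 2 and Nfkb2 (0.0563, edgeR adjusted p) without control replicate 3. These fits have fewer libraries by construction.

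**Figure D5:**
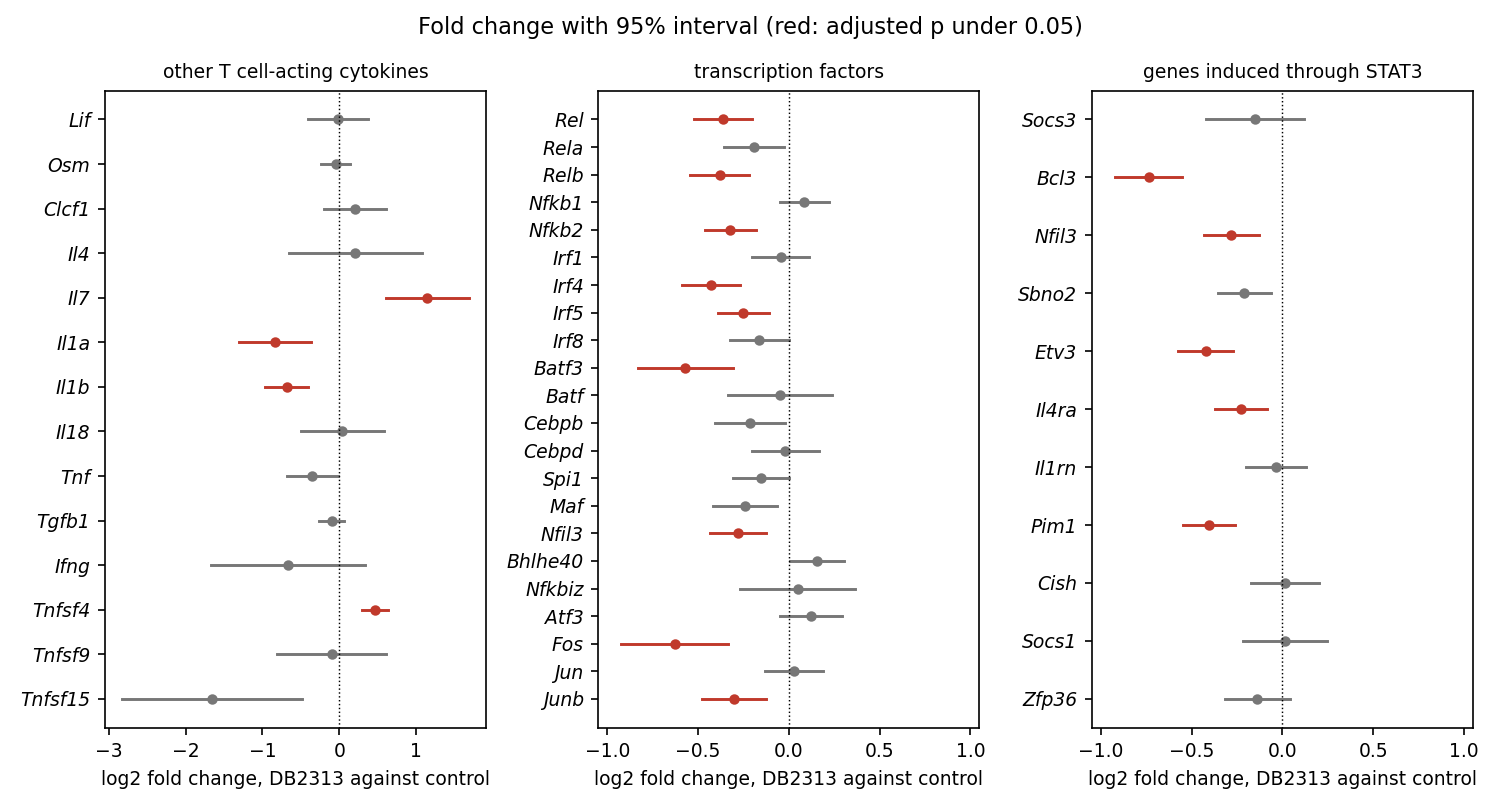
Log2 fold change (x axis, DB2313 against control) with its 95% interval for the tested genes of the other cytokine lists, the transcription factors and the STAT3-induced genes, with an adjusted p under 0.05 in red. The cytokines moved both ways, from -0.84 for Il1a to 1.14 for Il7 among those called, and the 9 called transcription factors and 5 called STAT3-induced genes all lie below 0.

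Total counts were 16146743 to 19764677 per library, and the replicates of each group differed by more than sampling noise, most of all DB2313 replicates 1 and 3. Cell identity was checked against markers, because Il12b, Il1b and the other genes named here can be made by several cell types. Of 12 dendritic cell markers, 9 exceeded 10 CPM, among them Ccr7, Itgax and Zbtb46, whereas Xcr1, Clec9a and Cd209a were under 10 CPM, and all 10 macrophage markers exceeded 10 CPM. Of the 10 macrophage markers, 6 were lower and 1, Fcgr1, higher, where 5.94% of all tested genes were lower and 4.66% higher, and their summed level was 2003 to 2141 CPM in control and 1550 to 1824 CPM with DB2313. Over the fits without 1 library 3 to 7 were lower, the fewest without DB2313 replicate 2, and Fcgr1 kept its call in 1 of the 6. Of the 11 dendritic cell markers tested, Itgax (log2 fold change -0.58) and Batf3 (-0.57) were lower. Clec9a was higher (log2 fold change 2.12, edgeR adjusted p 0.0017), and Xcr1 did not pass (-0.059). The sums were 10098 to 10347 CPM in control and 8481 to 10048 CPM with DB2313. The number lower was 1 without control replicate 1, 5 without DB2313 replicate 1, 4 without DB2313 replicate 3 and 2 in the other fits without 1 library, and Clec9a and Itgax kept their calls in all 6.

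Neutrophil markers (8 genes, all over 10 CPM, sums 3646 to 4101 CPM in control and 3580 to 4771 CPM with DB2313) had 2 genes higher and 1 lower, with 4 higher without DB2313 replicate 3, 2 lower without DB2313 replicate 1 and none lower without control replicate 1 or DB2313 replicate 2. Mast cell and basophil markers (7 of 9 over 10 CPM, sums 1359 to 1434 and 1372 to 1634 CPM) had 2 genes higher, while Mcpt4 and Tpsb2 were under 1 CPM. None of them was higher without control replicate 1, control replicate 3 or DB2313 replicate 2, and 1 was without control replicate 2 or DB2313 replicate 1. T cell markers (7 of 9 over 10 CPM, sums 187 to 215 and 193 to 272 CPM) had 1 gene higher (3 without DB2313 replicate 3, and none without control replicate 2, control replicate 3 or DB2313 replicate 2), and NK cell markers (2 of 6 over 10 CPM, sums 69.5 to 92.6 and 67.96 to 89.0 CPM) had none called, with 1 lower without DB2313 replicate 1. Over all tested genes 4.66% were higher and 5.94% lower. B cell markers summed to 2.82 to 4.06 and 5.05 to 6.44 CPM, without overlap. Cd79b, the only B cell marker tested, did not pass (log2 fold change 0.70, edgeR adjusted p 0.0873) but was called higher without DB2313 replicate 3. Fibroblast markers summed to 0.984 to 1.63 and 0.961 to 1.64 CPM, with 3 of the 6 at 0 counts in every library. The libraries thus held RNA of several blood cell types. The part of a change in macrophage or other cells in the fall of Il12b, or in the other changes given here, was not tested.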

How the data were processed

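RNA-seq of 3 control and 3 DB2313 libraries of mouse dendritic cells was analysed. The table deposited by the authors held raw counts of reads for 54532 genes, with gene lengths in other columns and no normalisation. The submitters' processing notes named CASAVA 1.8, HISAT2 2.0.5 and featureCounts 1.5.0-p3, whereas the methods of the study named LifeScope for alignment and counting. The build and strandedness were not given in the sources used here. Of 54495 gene identifiers shared with GENCODE M21 (GRCm38), 98.3% had the same start and end there, as did all 9 members.

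Groups came from the treatment label of each sample. The count columns were matched to the samples by reading the column names, and no label states this match. Counts were tested with edgeR 4.0.16 (quasi-likelihood, TMM scaling, filterByExpr, group as the only term, prior count of 0.125) in R 4.3.3, with Benjamini-Hochberg adjustment over 14174 genes and a threshold of 0.05. Unless another is named, adjusted p-values are from edgeR. Intervals of 95% use the standard error and degrees of freedom of that fit. The code was run on simulated counts with the same dispersion for every gene, which checks the code and not the calls made here. CPM used TMM-scaled library sizes, RPKM divided CPM by the deposited gene length, and the floor was 3 counts. Ratios of partner genes were tested only where both had at least 10 counts in every library, which left Ebi3 to Il27 and Il15 to Il15ra. Promoter windows came from RefSeq, and copies were searched with blastn 2.17.0 (at least 95% identity over 100 bp).

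The alternatives were DESeq2 size factors, scaling to totals alone, a filter at a mean of 10 counts or none, a prior count of 2, robust edgeR, limma-voom (limma 3.58.1), DESeq2 1.42.0, a gene length offset (lowess, span 0.3), the replicate number as a block, both together, and the omission of each library. The members and lists were chosen with earlier results of these data known. The genes named were the 9 members, every called gene of the pathway lists (1 listed gene is not reported here and is left out of all counts of these lists), and the 3 genes with a mean log2 CPM of at least 1 most correlated with Il12b. Further genes were picked with their values known. The labels gave no batch or date.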

Additional observations from a re-analysis of the deposited data

How the results depend on the processing

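Il12b kept its direction and its call in all 17 alternatives, with a log2 fold change of -1.11 to -0.93 over the fits that left out 1 library, and the number of called members was 1 in each. Il27, Il15 and Il15ra kept their signs, from 0.16 to 0.62, 0.043 to 0.15 and -0.22 to -0.056 over the fits without 1 library, and passed the threshold in no alternative. The sign of Ebi3 turned with the gene length offset (-0.018) and with this offset and the block (-0.020), and its value was -8.2e-07 to 0.13 over the fits without 1 library, the lowest without DB2313 replicate 2. That of Il6 was -0.10 to 0.0081, turning without control replicate 1. None of these passed, with adjusted p from 0.330 to 1.000 for Ebi3 and 0.692 to 1.000 for Il6. The cause was not tested.

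Over the fits without 1 library, 328 to 1097 genes were higher and 411 to 1311 lower, against 661 and 842 with all, the fewest without DB2313 replicate 2 and the most without DB2313 replicate 3. Called genes of the pathway lists numbered 11 to 25 there, against 20. The ratio of Ebi3 to Il27 changed by -0.58 to -0.14 and that of Il15 to Il15ra by 0.13 to 0.34 on the log2 scale, with no change of sign.

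Same-numbered libraries showed no shared deviation (correlations of same-numbered deviations 0.0035, -0.024 and -0.12) and were not treated as paired in the main fit. The labels do not say whether they share a culture or animal, and these correlations cannot settle it. Under the replicate block, Il12b had a log2 fold change of -1.02 (edgeR adjusted p 7.3e-05), 502 genes were higher and 629 lower, and 14 pathway genes were called. The block ended the calls of Il12rb1, Il10ra, Jak2, Irf5, Nfil3 and Il4ra (edgeR adjusted p 0.0649 to 0.134), so that none of the 10 receptor chains and 8 JAK and STAT genes counted was called, and left 4 macrophage markers lower and none higher, 1 mast cell and basophil marker higher and no T cell marker called. Depth limits Il12a, Il23a and Il10, which had 0 to 10 counts per library and did not pass the filter. Without the filter their log2 fold changes were -0.26 ± 1.21, 0.31 ± 1.65 and 0.15 ± 0.87 (SE, edgeR adjusted p 0.938 to 0.954).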
